A study of Homo sapiens with 2 samples.

Results

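The genes described here encode the phosphoinositide 3-kinase (PI3K), AKT and mechanistic target of rapamycin (mTOR) pathway, together with the lysosomal RAG and LAMTOR proteins and the AMP-activated kinase (AMPK) arm that meet it. The 42 genes were chosen by name, from knowledge of the pathway and with earlier results of these data known. The deposited table holds 50464 gene symbols, and all 42 genes were found there once each. They were put into 5 groups by role, with 9 genes of PI3K and phosphatases, 13 of the AKT and tuberous sclerosis complex (TSC) branch, 9 of the mTOR complexes and their substrates, 8 of RAG and LAMTOR, and 3 of AMPK. The levels come from RNA sequencing of KASUMI-1, a human line from acute myeloid leukaemia with the RUNX1-RUNX1T1 fusion. The groups are cells infected with the lentivirus pccl, read as the control, and cells infected with the lentivirus USP6, named after a deubiquitinase. Both groups are thus infected cells of the same line, and the labels give no time after infection. Each group was 1 library, so no difference has a replicate check, no test was made, and each interval covers counting error only.

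PI3K adds a phosphate to a membrane lipid after a receptor is engaged, and AKT, recruited by that lipid, is then phosphorylated by PDPK1 and by mTOR complex 2. AKT restrains the FOXO transcription factors and the TSC complex, which frees RHEB to switch on mTOR complex 1, the kinase that drives protein synthesis. Amino acids bring mTOR complex 1 to the lysosome through the RAG GTPases and their LAMTOR anchor, and AMPK opposes it when energy is short. In blood cells the delta and gamma catalytic subunits of PI3K are the leukocyte forms, whereas alpha and beta are made in most tissues.

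The libraries held 12306442 counts (pccl) and 12518795 counts (USP6), of which the mitochondrial genome took 49.9% and 45.6%. The USP6 gene had 8 and 70 counts (0.0396 and 0.340 FPKM), and whether these include reads of the lentiviral insert was not tested. The markers KIT, CD34, MPO, CD33 and RUNX1T1 were above 1 FPKM (counts over a length set for each gene and the library total) in both libraries. CD38 had 0 and 8 counts. Their levels were not alike in the libraries, with KIT at 99.3 and 39.99 FPKM and CD34 at 12.6 and 4.19 FPKM, both lower in the USP6 library. MPO had 27.4 and 122 FPKM, CD33 2.70 and 5.69 FPKM and ANPEP 0.451 and 2.39 FPKM, all higher there. Of 7 markers of T and natural killer cells, 3 were above 1 FPKM in the higher library. The 7 summed to 29.4 FPKM (pccl) and 31.1 FPKM (USP6), mostly CD3D. CD3D was lower in the USP6 library, with 27.8 and 22.6 FPKM. CD3E had 0.890 and 4.34 FPKM (75 and 372 counts) and CD2 0.156 and 3.10 FPKM (4 and 81 counts), both higher there. Of 5 B cell markers 3 were above 1 FPKM in the higher library, with sums of 4.06 and 13.9 FPKM, while MS4A1 was at 0 and 1 count. Of 6 erythroid markers 2 were above it, with sums of 26.3 and 5.25 FPKM. TFRC had 25.9 and 3.63 FPKM, EPOR went the other way with 0.387 and 1.58 FPKM (39 and 162 counts), and ALAS2 was at 0 in both. Of 6 stromal and epithelial markers 1 was above it (EPCAM), with sums of 17.4 and 9.88 FPKM, and COL1A2 and KRT18 were at 0 in both. The part of such shifts in the differences below was not tested. In one culture, fewer cells of a kind and less message per cell cannot be told apart.

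Stretches of DNA before the start sites of 4 members are shown, since these are the genes at the extremes of the comparison (PIK3CD, PIK3R2) and examples with a searched motif (STK11, LAMTOR1). RefSeq start sites (GRCh38.p14) matched 37 of the 42 members, and the first listed start was used for each. Each stretch runs toward the start and stops before the first annotated exon base of GENCODE release 29. Capitals mark CACGTG (an E-box, also the core of the lysosomal gene element), TGTGGT or TGCGGT (RUNX) and CCGGAAGT (ETS), on either strand.
PIK3CD (chr1:9651481-9651730, plus strand): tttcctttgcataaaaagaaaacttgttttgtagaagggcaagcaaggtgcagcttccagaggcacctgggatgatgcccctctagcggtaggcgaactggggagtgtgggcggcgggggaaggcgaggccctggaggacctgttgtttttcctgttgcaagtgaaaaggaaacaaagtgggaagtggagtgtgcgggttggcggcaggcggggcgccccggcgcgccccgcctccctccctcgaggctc
PIK3R2 (chr19:18152913-18153117, plus strand): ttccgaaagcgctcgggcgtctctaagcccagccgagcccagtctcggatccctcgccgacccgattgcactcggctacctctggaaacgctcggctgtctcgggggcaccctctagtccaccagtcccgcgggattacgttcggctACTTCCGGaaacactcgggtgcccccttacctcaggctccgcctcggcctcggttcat
STK11 (chr19:1205528-1205777, plus strand, inside the listed gene and in no exon): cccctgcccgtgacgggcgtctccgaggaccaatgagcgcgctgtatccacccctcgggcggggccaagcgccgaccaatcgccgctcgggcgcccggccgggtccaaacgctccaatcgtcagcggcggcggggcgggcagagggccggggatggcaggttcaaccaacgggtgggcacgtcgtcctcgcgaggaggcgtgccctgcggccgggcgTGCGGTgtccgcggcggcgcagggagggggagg
LAMTOR1 (chr11:72103388-72103547, minus strand): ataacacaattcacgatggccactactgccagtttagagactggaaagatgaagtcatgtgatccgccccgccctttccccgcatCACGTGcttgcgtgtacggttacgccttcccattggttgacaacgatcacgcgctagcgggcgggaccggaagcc
In the full window of 250 bases, CACGTG occurred before 4 of 37 members (LAMTOR1, LAMTOR4, RRAGC and TSC2), against 6.49% of 27305 promoters. RUNX letters occurred before 3 (LAMTOR2, MAPKAP1 and STK11), against 16.1%, and CCGGAAGT before 3 (MAPKAP1, PIK3R2 and TSC2), against 3.64%. The motifs did not overlap in the stretches shown. The PIK3CD stretch held none of them. LAMTOR2 and STK11 were higher in the USP6 library and MAPKAP1 was lower, so genes with RUNX letters lay on both sides. A match is a run of letters and does not show that a factor binds.

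The differences were of both signs, and at the limit of 1 used below they were about as frequent as in the transcriptome. Genes that reached 1 FPKM in either library were called expressed, and the difference was log2((USP6 + 1)/(pccl + 1)) of FPKM, on which low genes show smaller values than their fold. Of the 42 members, 37 passed this filter. The other 5 were PIK3R1, PIK3R5, PDPK1, FOXO1 and RRAGC. Among the 37, 3 had a difference of 1 or more (PIK3R2, STK11 and LAMTOR2), against 13.7% of 10153 expressed genes. The lower side held 5 members at or past -1 (PIK3CD, RRAGD, PIK3CG, RPS6KB1 and PIK3CB), against 11.4% of those genes. These are 8.11% and 13.5% of the expressed members. With other scalings the split of 3 higher and 5 lower became 1 and 6 with the trimmed mean or a median of 0. It became 2 and 6, of 41 members, with depth from nuclear genes. Among all expressed genes, 1161 of 10024 were then higher and 1313 lower with the trimmed mean. With a median of 0 these were 1210 and 1319 of 10153, and with nuclear depth 1820 and 2005 of 12483.

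At the smaller limit of 0.58, about 1.5-fold, 5 members were higher, against 27.9% of all expressed genes, and 11 were lower, against 24.5%. The members' median was -0.04, beside 0.06 for all expressed genes. Counting intervals of the ratio excluded 1 in 12 higher and 18 lower members and included it in the other 12. The share of all genes with such intervals was not computed, so these counts are no result about the members. Summed over all 42 genes, the level was 146 FPKM (pccl) and 136 FPKM (USP6). The range of single values was 0.0481 FPKM (PIK3CD, USP6 library) to 12.7 FPKM (LAMTOR2, USP6 library). By FPKM no member was an abundant message, and the counts behind them ran from 6 to 2126. The length used in FPKM exceeded the listed locus of some members, such as MLST8. The 1 FPKM filter, and orders, sums and shares of different genes, therefore hold for the deposited FPKM only. A fold of 1 gene between the libraries does not depend on that length.

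**Figure D1:**
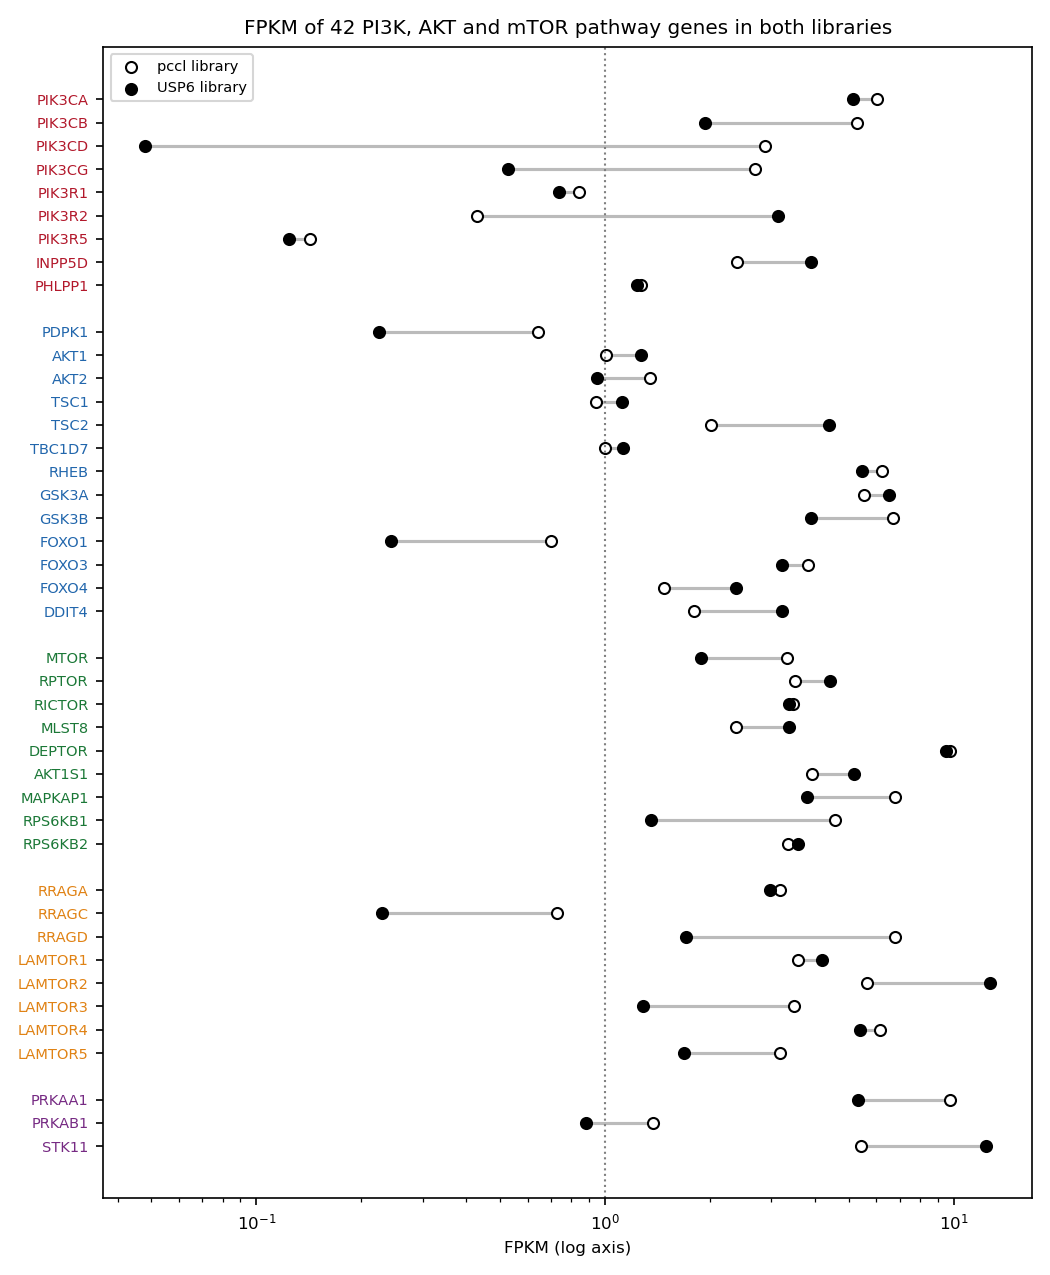
FPKM (log axis) of the 42 members in the pccl library (open circles) and the USP6 library (filled circles), 1 library each, with gene names coloured by role group and a dotted line at 1 FPKM. Most pairs lie close together, and PIK3CD has the longest line, from 2.87 to 0.0481 FPKM.

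The catalytic subunits of class I PI3K were all lower in the USP6 library as deposited, by very different amounts, and with GC centring PIK3CA was not. PIK3CD encodes p110 delta, the leukocyte subunit coupled to cytokine and antigen receptors. It had 2.87 FPKM (352 counts) in the pccl library and 0.0481 FPKM (6 counts) in the USP6 library, 59.7-fold lower with a 95% counting interval of 27.1 to 164. The gene (ENSG00000171608, chromosome 1 from 9651732 to 9729114) overlaps CLSTN1 on the other strand, with 882 and 1243 counts, and PIK3CD-AS1, with 2 and 16 counts. Whether counting used strand is not given in the sources used here, so reads of such partners cannot be told apart.

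PIK3CG encodes p110 gamma, the subunit driven by G protein-coupled receptors. Its level was 2.69 FPKM (296 counts) in the pccl library and 0.526 FPKM (59 counts) in the USP6 library, 5.10-fold lower (3.85 to 6.87). PIK3CB, for the widely made p110 beta, had 5.27 FPKM (1095 counts) and 1.94 FPKM (410 counts), 2.72-fold lower (2.42 to 3.05). PIK3CA, for p110 alpha, differed least, with 6.05 FPKM (759 counts) and 5.15 FPKM (657 counts), 1.18-fold lower (1.06 to 1.31). After centring on GC content, described below, its log2 difference was 0.05 and thus of the other sign. Those of PIK3CB, PIK3CG and PIK3CD were then -0.73, -1.07 and -2.28.

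In FPKM the order was alpha, beta, delta, gamma in the pccl library, where delta and gamma lay close together. It was alpha, beta, gamma, delta in the USP6 library, where each step was larger. The sum of the 4 subunits was 16.9 FPKM and 7.66 FPKM. PIK3CA made up 35.8% of that sum (pccl) and 67.2% (USP6). PIK3CD went from 17.0% to 0.627%, PIK3CG from 15.9% to 6.87% and PIK3CB from 31.3% to 25.3%. A ratio of 2 genes within a library does not depend on how the libraries are scaled. It does depend on the lengths used in FPKM, which cancel in its change between the libraries. PIK3CA over PIK3CD went from 2.11 (pccl) to 107 (USP6), a change of 50.8-fold (22.8 to 140). PIK3CA over PIK3CG went from 2.25 to 9.78, and over PIK3CB from 1.15 to 2.65.

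Among the regulatory subunits the gene with the highest FPKM was another in each library. PIK3R2, for p85 beta, had 0.429 FPKM (41 counts) in the pccl library and 3.14 FPKM (305 counts) in the USP6 library, 7.31-fold higher (5.27 to 10.4). It is listed on chromosome 19 from 18153118 to 18170540 (ENSG00000105647) and overlaps AC007192.1 on the same strand, with 18 and 78 counts, so its level is uncertain. PIK3R1, for p85 alpha, had 0.844 and 0.738 FPKM (191 and 170 counts), and the counting interval of its fold, 0.925 to 1.41, included 1. PIK3R5, which encodes the p101 partner of p110 gamma, was low in both libraries, with 0.142 and 0.124 FPKM (27 and 24 counts). PIK3R2 over PIK3R1 went from 0.509 (pccl) to 4.25 (USP6), so the order of this pair in FPKM was reversed. The sum of the 3 genes was 1.42 and 4.0 FPKM, below that of the catalytic subunits in either library.

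The phosphatases of this group were less different. INPP5D encodes SHIP1, which removes a phosphate from the lipid product of PI3K in blood cells. Its level was 2.39 FPKM (362 counts) in the pccl library and 3.90 FPKM (601 counts) in the USP6 library, 1.63-fold higher (1.43 to 1.86). PHLPP1, which dephosphorylates AKT, had 1.27 and 1.24 FPKM (154 and 153 counts), and its counting interval included 1. Over the 7 expressed genes of PI3K and phosphatases the median log2 difference was -0.20.

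**Figure D2:**
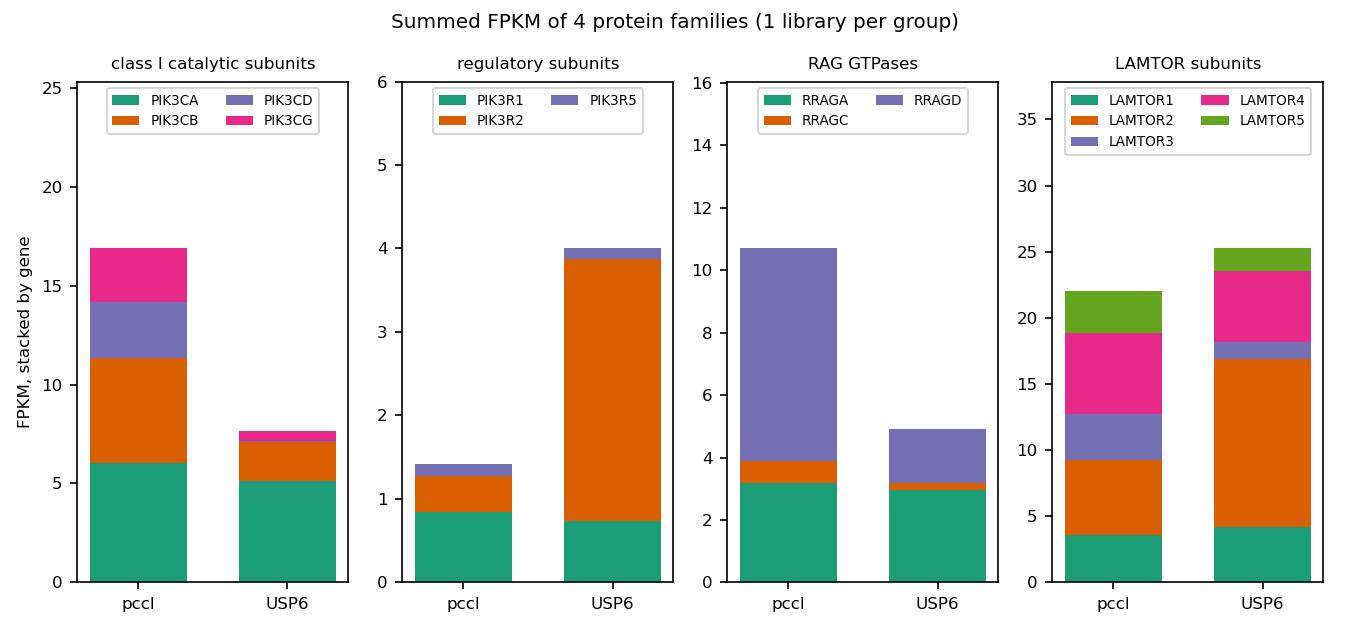
Summed FPKM of 4 protein families in the pccl and USP6 libraries, each bar stacked by gene and each family on its own axis, without error bars since each bar is 1 library. PIK3CA, PIK3R2, RRAGA and LAMTOR2 take the largest share of their family in the USP6 library.

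No expressed gene of the AKT and TSC branch reached the limit of 1 in either direction. Of its 11 expressed genes, 2 were at or past 0.58 (TSC2 and DDIT4) and 1 was at or past -0.58 (GSK3B), with a median of 0.13. After GC centring these calls ended, at 0.28 for TSC2, 0.17 for DDIT4 and -0.37 for GSK3B, and AKT2 alone of the branch was past the limit. PDPK1, the kinase that activates AKT, lay under 1 FPKM in both libraries, with 0.643 and 0.225 FPKM (146 and 52 counts, 2.86-fold lower, 2.07 to 4.0). AKT1 had 1.01 FPKM (306 counts) in the pccl library and 1.27 FPKM (391 counts) in the USP6 library. AKT2 had 1.34 FPKM (522 counts) and 0.948 FPKM (375 counts). The order of the AKT pair in FPKM was thus reversed, with AKT1 over AKT2 at 0.752 and 1.34, a change of 1.78-fold (1.45 to 2.18). With GC centring both were negative, -0.46 for AKT1 and -0.70 for AKT2.

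TSC2 encodes the GTPase-activating subunit that switches RHEB off. It had 2.02 FPKM (428 counts) in the pccl library and 4.40 FPKM (948 counts) in the USP6 library, 2.18-fold higher (1.94 to 2.45). On the other strand it overlaps PKD1, with 333 and 859 counts, and NTHL1, with 139 and 154 counts. Its partners differed less, TSC1 with 0.944 and 1.12 FPKM (187 and 226 counts) and TBC1D7 with 1.002 and 1.13 FPKM (145 and 166 counts), and both counting intervals included 1. TSC2 over TSC1 went from 2.14 to 3.92. RHEB itself had 6.24 and 5.45 FPKM (398 and 354 counts), an interval that also included 1, while its pseudogenes RHEBP1 and RHEBP2 had 57 and 26 and 109 and 36 counts. Reads of RHEB and these copies may be shared.

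The AKT substrates divided within families. GSK3A and GSK3B encode the paired forms of glycogen synthase kinase 3, which AKT inhibits. GSK3A had 5.52 FPKM (426 counts) in the pccl library and 6.54 FPKM (514 counts) in the USP6 library, whereas GSK3B had 6.68 FPKM (733 counts) and 3.89 FPKM (434 counts), 1.72-fold lower (1.52 to 1.94). GSK3A over GSK3B was 0.825 and 1.68, again a reversed order in FPKM, with a change of 2.04-fold (1.70 to 2.44). Of the FOXO transcription factors, which AKT keeps out of the nucleus, FOXO3 led in both libraries with 3.83 and 3.22 FPKM (675 and 577 counts). FOXO4 had 1.48 and 2.38 FPKM (83 and 136 counts, 1.61-fold higher, 1.22 to 2.14). FOXO1 had 0.701 and 0.243 FPKM (51 and 18 counts, 2.88-fold lower, 1.66 to 5.24). The 3 together summed to 6.01 and 5.84 FPKM. DDIT4 (REDD1), a stress-induced brake on mTOR complex 1 that acts through TSC, had 1.80 FPKM (67 counts) and 3.22 FPKM (122 counts), 1.79-fold higher (1.32 to 2.45).

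In the mTOR complexes the shared kinase was lower, while RPTOR and AKT1S1, both specific to complex 1, were higher as deposited and below 0 after GC centring. MTOR had 3.33 FPKM (562 counts) in the pccl library and 1.89 FPKM (325 counts) in the USP6 library, 1.76-fold lower (1.53 to 2.02). RPTOR, the scaffold of complex 1, had 3.50 and 4.42 FPKM (652 and 839 counts, 1.26-fold higher, 1.14 to 1.40). AKT1S1, the PRAS40 inhibitor in that complex, had 3.92 and 5.18 FPKM (513 and 690 counts) and overlaps TBC1D17 on the other strand, with 96 and 292 counts, so its level is uncertain. MLST8, which both complexes hold, had 2.38 and 3.37 FPKM (573 and 825 counts). With GC centring RPTOR, AKT1S1 and MLST8 were at -0.25, -0.22 and -0.37, and MTOR was at -0.70.

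The subunits of complex 2 differed from each other. RICTOR, its scaffold, had 3.47 and 3.38 FPKM (848 and 839 counts), with a counting interval that included 1. MAPKAP1, for the SIN1 subunit, had 6.80 FPKM (1034 counts) in the pccl library and 3.80 FPKM (588 counts) in the USP6 library, 1.79-fold lower (1.62 to 1.98). DEPTOR, an inhibitor bound to both complexes, had the highest FPKM of this group but not the most counts. It had 9.78 and 9.51 FPKM (374 and 370 counts), and its interval included 1. RPTOR over RICTOR was 1.01 and 1.31, a change of 1.30-fold (1.13 to 1.5), whereas the difference of their GC-centred values was -0.54, the opposite sign.

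The S6 kinases, direct substrates of mTOR complex 1, differed unequally. RPS6KB1 (S6K1) had 4.57 FPKM (937 counts) in the pccl library and 1.36 FPKM (283 counts) in the USP6 library, 3.37-fold lower (2.95 to 3.86). RPS6KB2 (S6K2) had 3.35 and 3.58 FPKM (424 and 461 counts), and its interval included 1. RPS6KB2 over RPS6KB1 went from 0.733 to 2.64, a change of 3.60-fold (2.97 to 4.36). In FPKM, S6K2 was thus the lower of the pair in the pccl library and the higher in the USP6 library.

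The RAG GTPases and LAMTOR subunits, which form a single lysosomal platform, were spread over a wide range. RRAGD had 6.80 FPKM (721 counts) in the pccl library and 1.71 FPKM (184 counts) in the USP6 library, 3.99-fold lower (3.39 to 4.71). Its alternative, RRAGC, had 0.726 and 0.229 FPKM (53 and 17 counts, 3.17-fold lower, 1.81 to 5.84). RRAGC over RRAGD was 0.107 and 0.134, and the interval of that change, 0.666 to 2.27, included 1. RRAGA, the partner of both, had 3.17 and 2.97 FPKM (62 and 59 counts). The 3 genes summed to 10.7 and 4.90 FPKM, of which RRAGD made up 63.6% and 34.8%.

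The 5 LAMTOR genes had levels within a factor of 1.93 of each other (pccl) and of 9.89 (USP6). LAMTOR2 had 5.64 FPKM (190 counts) in the pccl library and 12.7 FPKM (435 counts) in the USP6 library, 2.25-fold higher (1.89 to 2.68). LAMTOR3, which pairs with LAMTOR2 in the complex, went the other way, with 3.49 FPKM (254 counts) and 1.28 FPKM (95 counts), 2.72-fold lower (2.14 to 3.48). LAMTOR2 over LAMTOR3 was thus 1.62 and 9.89, a change of 6.12-fold (4.53 to 8.28). LAMTOR5 was lower, with 3.18 and 1.68 FPKM (188 and 101 counts, 1.89-fold, 1.48 to 2.44), and overlaps LAMTOR5-AS1 with 22 and 9 counts. Its partner LAMTOR4 had 6.15 and 5.40 FPKM (281 and 251 counts). LAMTOR1, the membrane anchor, had 3.59 and 4.18 FPKM (210 and 249 counts). The intervals of LAMTOR1 and LAMTOR4 included 1, and the family sum was 22.1 and 25.2 FPKM.

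In the AMPK arm the activating kinase was higher and the kinase it activates was lower. STK11 (LKB1) had 5.44 FPKM (920 counts) in the pccl library and 12.4 FPKM (2126 counts) in the USP6 library, 2.27-fold higher (2.10 to 2.46). It has the highest transcript GC content of the members, 65.8%, and its log2 difference of 1.05 was 0.26 after GC centring. PRKAA1, the catalytic alpha 1 subunit, had 9.75 FPKM (1087 counts) and 5.30 FPKM (601 counts), 1.84-fold lower (1.66 to 2.04). PRKAB1, a regulatory beta subunit, had 1.37 and 0.884 FPKM (217 and 142 counts, 1.55-fold lower, 1.25 to 1.93). STK11 over PRKAA1 was 0.558 and 2.33, a reversed order in FPKM.

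**Figure D3:**
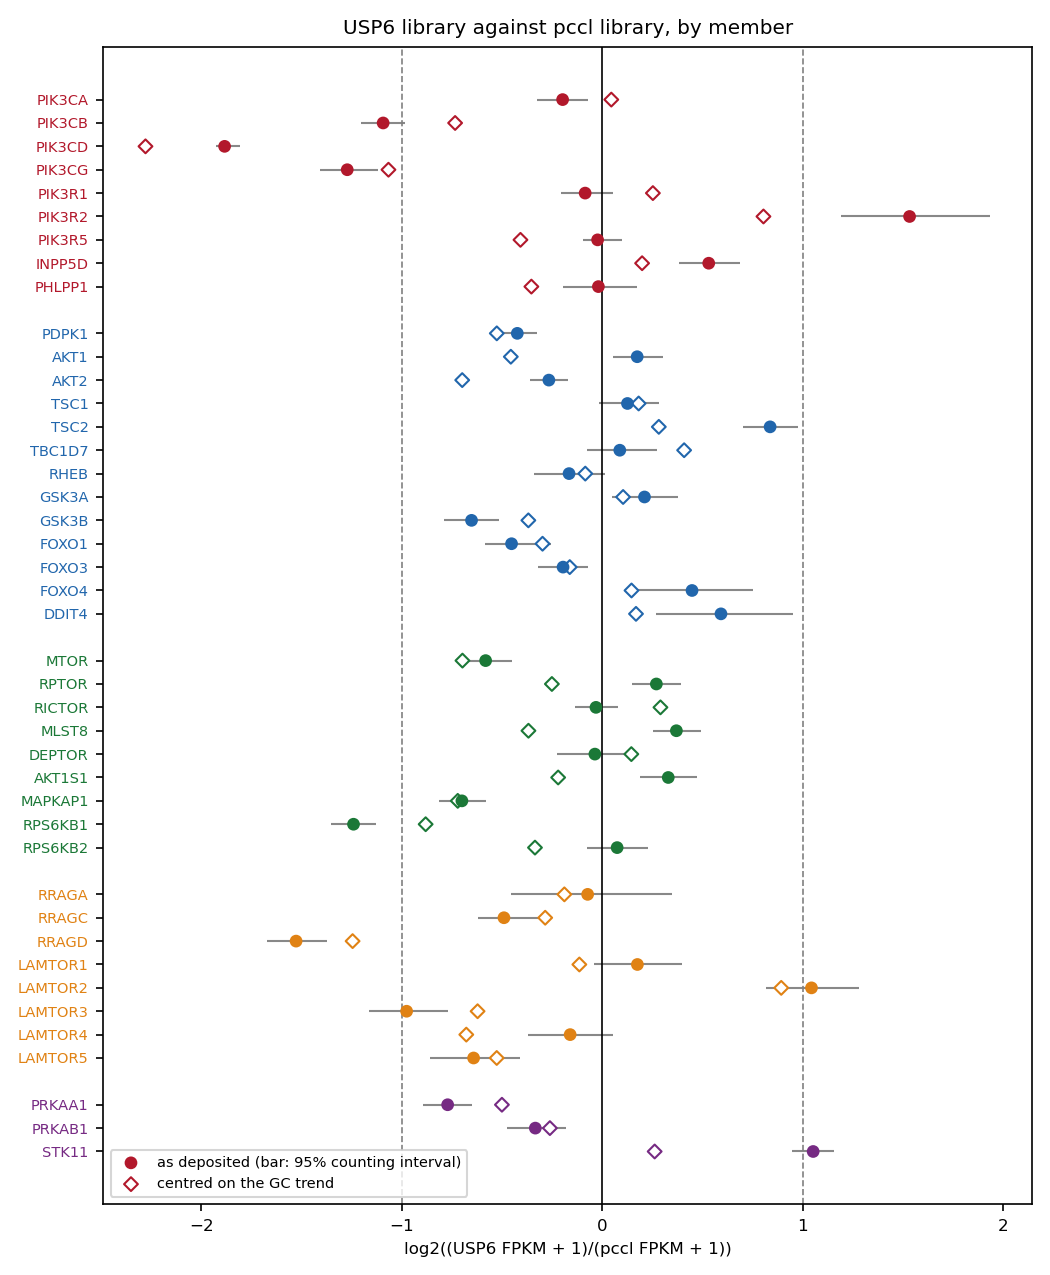
Log2 difference of each member between the USP6 and pccl libraries, as deposited (filled circles, with bars for the 95% counting interval) and centred on the GC trend (open diamonds), with dashed lines at 1 and -1. PIK3CD, PIK3CG and RRAGD lie past -1 on both scales, and no member lies past 1 after centring.

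The members' differences followed the GC content of their transcripts, as did those of other genes. Across the 42 members, Spearman's rho between the log2 difference and GC was 0.65, and across 10105 expressed genes it was 0.40. Genes of 1 library pair are not independent replicates, and these points share libraries and depth. Of 19 members with under 50% GC, 17 had a ratio below 1 and 2 above it, whereas of 23 members with more, 14 were above and 9 below. Among all expressed genes, 62.6% of those under 50% GC were lower, and 70.5% of those at or above it were higher. Medians of the expressed members in these classes were -0.49 and 0.21, beside -0.27 and 0.43 for all expressed genes. In the reversed pairs GSK3A, AKT1, RPS6KB2, PIK3R2 and STK11 each have the higher GC content. Within these pairs the difference of GC-centred values kept its sign, at 0.47, 0.24, 0.55, 0.55 and 0.76 in that order. The pairs were chosen after values were seen, so their GC order adds no support.

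PIK3CD did not follow it, with 57.6% GC and the lowest ratio of the members. After centring each gene on the trend, 0 expressed members were at or past 1, against 9.69% of 10105 genes. Those at or past -1 were 3 (PIK3CD, RRAGD and PIK3CG), against 9.85%. At 0.58, 2 were higher (PIK3R2 with 0.81 and LAMTOR2 with 0.89), against 22.1%, and 10 were lower, against 22.5%. The median of the expressed members was then -0.25, beside -0.02 for all expressed genes.

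**Figure D4:**
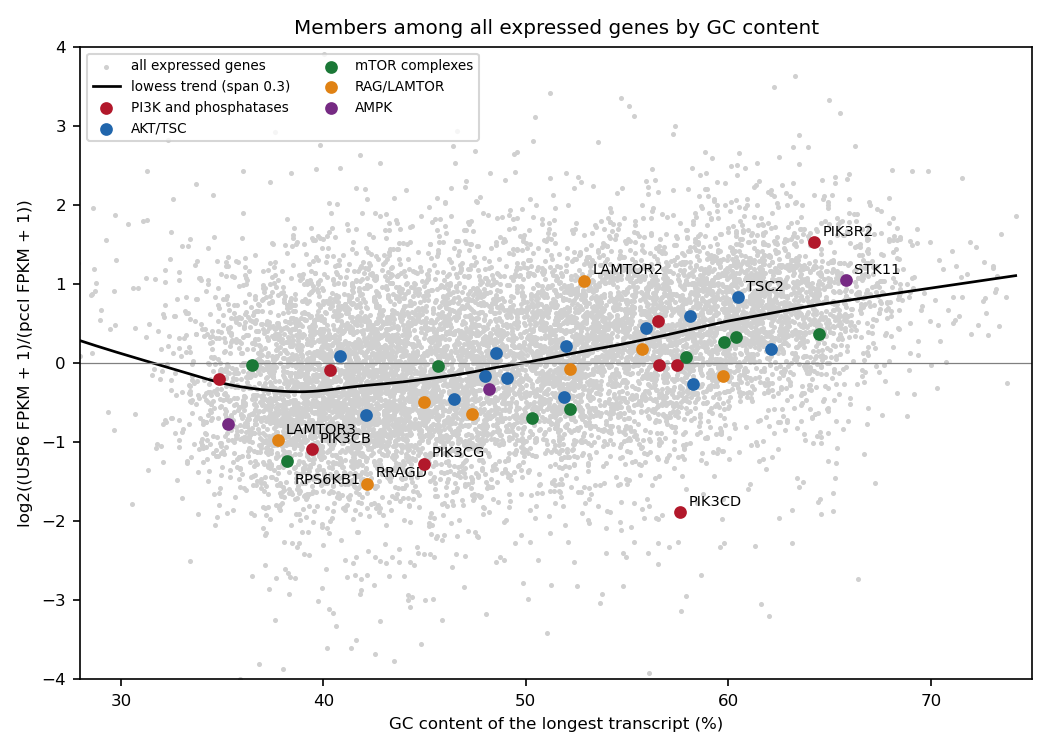
Log2 difference between the USP6 and pccl libraries against the GC content of the longest transcript for 10105 expressed genes (grey), with the lowess trend (line) and the 42 members coloured by role group. Of the members, 28 lie below the trend and 14 above it, PIK3CD farthest below. These counts include 5 members under the 1 FPKM filter, and the share of all genes below the trend was not computed. Outside the axes lie 12 grey genes.

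Other genes of the pathway, from lists of 95 genes, also differed in both directions. Of their 62 expressed genes, 6 (9.68%) were at or past 1 and 10 (16.1%) at or past -1, against 13.7% and 11.4% of all expressed genes, with a median of -0.02. Centred on GC, 6 were at or past 1 and 9 at or past -1, against 9.69% and 9.85% of all expressed genes. The counts of single lists below are as deposited, rest on few genes and are read against the same shares as deposited. GC centring moved some of these genes across the limit. Among 19 further PI3K and receptor adaptor genes 8 were expressed, 2 of them higher and 1 lower. GAB2, an adaptor that recruits PI3K to receptors, had 0.198 and 2.88 FPKM (20 and 295 counts, 14.5-fold higher, 9.22 to 24.1), and the insulin receptor gene INSR had 1.26 and 4.30 FPKM (193 and 667 counts). The class II kinase gene PIK3C2A was lower, with 2.99 and 0.645 FPKM (410 and 90 counts, 4.63-fold lower, 3.68 to 5.89). In the list of other AKT-class kinases and mTOR assembly genes, 1 of 6 expressed genes was higher and 0 were lower. This was the assembly factor gene TELO2, with 7.90 and 23.7 FPKM. After GC centring TELO2 went from 1.47 to 0.67, under the limit, and SGK1 from 0.75 to 1.06, past it.

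Amino acid sensing genes outside the members were mixed, with 0 of 14 expressed genes at or past 1 and 1 at or past -1. This was SESN3, a sestrin gene, with 15.3 FPKM (2318 counts) in the pccl library and 2.61 FPKM (403 counts) in the USP6 library, 5.85-fold lower (5.26 to 6.52). GATOR1, the brake on the RAG GTPases, and the opposing GATOR2 were both mixed as deposited. In GATOR1, NPRL2 and NPRL3 were higher, by 2.20-fold (1.92 to 2.53) and 2.79-fold (2.26 to 3.46), while DEPDC5 had 88 and 87 counts. In GATOR2, SEH1L was 2.27-fold lower (2.04 to 2.53) and WDR24 2.19-fold higher (1.67 to 2.90), and WDR59 had 162 and 183 counts. After GC centring NPRL2, NPRL3 and DEPDC5 were at 0.50, 0.26 and -0.16, and SEH1L, WDR24 and WDR59 at -0.60, 0.05 and 0.08. Of 5 expressed further AMPK genes, 1 was higher and 2 lower. STRADA and STRADB encode alternative pseudokinase partners of STK11 and went opposite ways, STRADA with 0.835 and 3.05 FPKM (181 and 672 counts) and STRADB with 5.63 and 0.877 FPKM (429 and 68 counts). CAB39, the scaffold of that trimer, had 7.50 and 1.5 FPKM (709 and 144 counts, 5.01-fold lower, 4.18 to 6.03).

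Of 11 expressed mTOR complex 1 substrates and translation factors, 0 were at or past 1 and 2 at or past -1. EIF4EBP2, a translation repressor, was 2.57-fold lower (2.38 to 2.77) and LARP1, which binds messages of ribosomal proteins, 2.68-fold lower (2.46 to 2.92). RPS6, the ribosomal target of the S6 kinases, had 322 and 537 FPKM, 1.67-fold higher (1.63 to 1.70). FOXO target genes had 2 higher and 1 lower of 7 expressed. CCNG2 had 0.0892 and 1.31 FPKM (11 and 164 counts), BCL6 0.196 and 1.78 FPKM (25 and 230 counts), and KLF2 was 5.69-fold lower (3.76 to 8.92). Of 11 expressed ATF4 targets that mTOR complex 1 is known to raise, 0 were at or past 1 and 3 at or past -1, with a median of -0.61. PSPH, of serine synthesis, was 10.2-fold lower (6.89 to 15.6), the cystine transporter gene SLC7A11 4.74-fold (3.84 to 5.90) and MTHFD2, of mitochondrial folate metabolism, 2.75-fold (2.46 to 3.09).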

How the data were processed

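RNA sequencing of KASUMI-1 cells gave 1 library per group (pccl, USP6), assigned by the treatment label. Per the submitters' processing notes, HISAT2 2.0.4, StringTie 1.3.3b and edgeR were used, in roles not stated. The sources used here do not give the build, annotation or strandedness. Per the file headers, the deposited read counts per gene are whole numbers. The authors' FPKM is the count over a fixed length per gene and the column total. The implied length was the same in both libraries (within 0.1%) in 16030 of 16030 genes detected in both. What this length stands for is not known. For MLST8 it was 19548 bases, more than its listed locus (2204248 to 2209416) spans. For RPS6KB2 it was 10283 bases, also more than its locus (67428460 to 67435408). Loci of 94.8% of 50111 identifiers found in GENCODE release 29 (GRCh38) were identical, and of 39 of 42 members.

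Values of 1 symbol were summed. The pseudocount was 1 FPKM, the filter 1 FPKM in the higher library, and the limits 1 and 0.58 (log2). With 0 residual degrees of freedom no test was made, although counts are held. Fold intervals are exact conditional binomial (Clopper-Pearson, 95%), and those of a change in a ratio of genes are conditional odds ratio intervals. PCR copies can make both too narrow. GC content is that of the longest GENCODE transcript, and GC centring subtracts a lowess trend (span 0.3) fitted over expressed genes. Alternatives were pseudocounts, filters, scalings, GC centring and single identifiers. Steps were tested on simulated data. Members at or past 1 or -1 and the most different of each list were to be named, and some of these are not reported here. Members and lists were chosen with earlier results of these data known, and the gene pairs and motifs after values were seen. Python 3.11.15, SciPy 1.17.1, statsmodels 0.14.6, matplotlib 3.10.9 and R 4.3.3 with edgeR 4.0.16 (scaling factors only) were used.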

Additional observations from a re-analysis of the deposited data

How the results depend on the processing

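All 16 members at or past 0.58 or -0.58 kept their direction under all 10 alternatives. Only the scalings and GC centring could have changed a direction. The filters and single identifiers leave a member's value as it is, and a pseudocount cannot change its sign. Of the 16, 5 (PIK3CD, PIK3R2, RPS6KB1, RRAGD and LAMTOR2) also stayed past that limit in each alternative. Counts of members moved by over 1.5 times under some settings. With a pseudocount of 5, 0 were higher and 0 lower at the limit of 1, and 3 and 3 at 0.58. With a filter of 5 FPKM, which leaves 13 members, 2 were lower at 1, and 2 higher and 5 lower at 0.58. At the limit of 1, 1 was higher with the trimmed mean of M values and 1 with a median log2 ratio of 0. Centred on GC, 0 were higher and 3 lower at 1, and 2 higher at 0.58. The members' median of -0.04 became -0.25 with GC centring and -0.19 with depth from nuclear genes, which raises all values and lets 41 members pass the filter. For all expressed genes the median of 0.06 became -0.02 and -0.03 in these settings.

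Among all expressed genes, 2295 were higher and 1993 lower at the limit of 1 with a pseudocount of 0.1, 364 and 301 with 5 (1105 and 951 at 0.58), and 808 and 682 with a filter of 5 FPKM (1366 and 1191 at 0.58), against 1396 and 1156 as reported (2831 and 2489 at 0.58). With depth from nuclear genes 2005 were lower. No paired analysis was possible because each group is 1 library, and no library could be left out. The smallest count, 6 for PIK3CD in the USP6 library, limits its fold most, and differences between cultures were not measured.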
